A study of Homo sapiens with 2 samples.

Results

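The genes described here carry out homologous recombination, interstrand crosslink repair, mismatch repair and DNA damage checkpoint signalling. The set was a list of 42 named genes, and its members were found as all probe sets annotated to exactly 1 of these symbols. A probe set is a group of short oligonucleotides on the array that is read as 1 signal, and some probe sets may bind several transcripts. Of the 42 genes, 37 had such a probe set, with 82 probe sets between them, out of 19775 genes and 41091 single-symbol probe sets on the array. BRCA2, FANCA, FANCD2, PMS2 and RBBP8 were not analysed here. A further 4 probe sets carried the symbol of PMS2 or RAD54B together with that of another gene and were left out.

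RNA of Seg-1 cells was hybridised to oligonucleotide arrays of the Affymetrix U133 Plus 2.0 design. Seg-1 is an established human line that was long held to be an esophageal adenocarcinoma, and the labels identify it as H460, a lung line, and call it a lung adenocarcinoma. One array held RNA from cells given a negative control siRNA without a match in known genes. The other held RNA from cells given FGF-AS siRNA, whose target is the RNA that the gene NUDT6 transcribes antisense to FGF2, the gene of fibroblast growth factor 2. Both cultures were reverse transfected with a lipid reagent and harvested after 72 hours, with siRNA at a final concentration between 25 and 200 nM that is not given per array. Each group held 1 array, and untransfected cells were not analysed here, so no difference could be tested against variation between cultures, no p-value is given, and the number of arrays limits the precision. In a bulk sample, fewer cells of a type and less RNA per cell cannot be told apart.

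Values are signals on the authors' linear scale in arbitrary units. Differences are log2 ratios of FGF-AS siRNA over control after 6.1 was added to each signal, and folds are on this same scale, which understates the differences of dim genes. A gene was read from its brightest probe set and counted as measured when its mean signal over both arrays reached 23.85, the median of all probe sets. All 37 members with a probe set were measured, and 29 of them passed a stricter minimum of 145.15. Probe sets of 1 gene disagreed with an SD of 0.36 in log2 ratio at the stricter minimum (3050 genes) and 0.58 below it (2365 genes). This SD holds no variation between cultures or hybridisations. The targeted gene checked the labels: NUDT6 read 376.9 with control and 104.5 with FGF-AS siRNA on one probe set, and 267 and 77.8 on the other, 27.7% and 29.1% of control. The epithelial keratins KRT8 and KRT18 had mean signals of 3628 and 9740, while the junction protein CDH1 (0.9 and 18.4) was below the minimum. Of 6 lung markers 5 were measured, with HOPX at 766.8 and 519.4 and SFTPB at 110.8 and 98. A second SFTPB probe set had a log2 ratio of 0.85. The other measured ones were dim: NAPSA (31.9 and 44), SFTPC (14.7 and 59.1) and FOXA2 (31.6 and 20.4). The lineage factor NKX2-1 was not measured (24.9 and 11.8). By the same minimum, 3 of 4 intestinal, 2 of 4 leukocyte, 1 of 3 endothelial and 1 of 4 squamous markers were also measured. Markers in these lists had mean signals of at most 62.4. Of 4 fibroblast markers 2 were measured, COL1A1 (164.3 and 151.6) and COL3A1 (316.4 and 104.6, 2.91-fold lower), and the list's summed signal was 494.4 and 302.9. The part of this in the results below was not tested.

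Broken DNA is sensed by the kinases ATM and ATR, which act through the kinases CHEK2 and CHEK1 to halt the cell cycle. Breaks in replicated DNA are mended by homologous recombination, in which BRCA1, PALB2 and BRCA2 help resected ends to use the sister chromatid as template. The Fanconi pathway removes crosslinks between the strands, and its central step is the attachment of ubiquitin to FANCD2 and FANCI. Many of these genes are transcribed mainly in S and G2 phase, when a sister chromatid is present.

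The members were spread around a small shift to higher signal with FGF-AS siRNA. Of the 37 measured members, 24 had a log2 ratio above 0 and 13 below, with a median of 0.15 (1.11-fold) and a range from -0.76 to 0.69. Over all 12352 measured genes the median was -0.02, and 48.1% were above 0. MSH6, RAD51AP1, BLM and RAD54B were at least 1.5-fold higher, against 7.96% of all measured genes. CHEK1, FANCF and XRCC2 were at least 1.5-fold lower, against 9.52% of all measured genes. These 4 and 3 members of 37 are 10.8% and 8.11%, near those backgrounds. No member reached 2-fold, which 4.77% of measured genes did. A second way to read the spread is against the disagreement between probe sets: 8 members lay above 1 SD, 6 below and 23 within it. Above were MSH6, RAD51AP1, BLM, RAD54B, BARD1, BRIP1, FANCI and USP1 (21.6% of members, 13.5% of all measured genes), and below were CHEK1, FANCF, XRCC2, RAD50, CHEK2 and FANCE (16.2% of members, 14.8% of all measured genes).

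**Figure D1:**
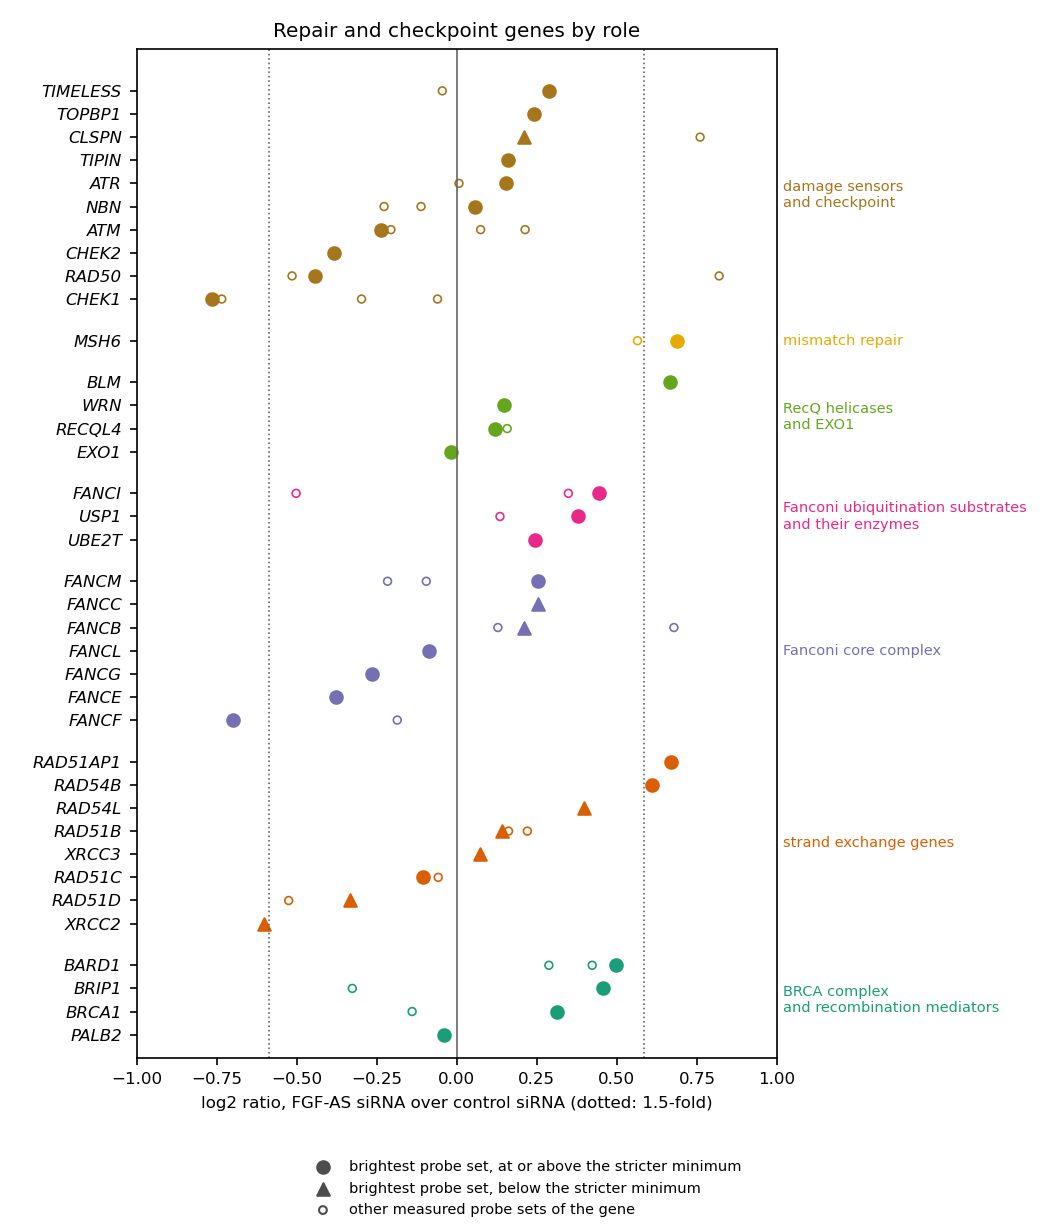
Log2 ratio (x axis) of each measured member (rows), grouped by role. Filled symbols are the brightest probe set, drawn as circles at or above the stricter minimum and triangles below it, and open circles are the gene's other measured probe sets. MSH6 at 0.69 and CHEK1 at -0.76 are the ends of the range, and the dotted lines mark 1.5-fold.

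The 2 highest and 2 lowest members at the stricter minimum have the following promoters, shown because these members are the ends of the range. Whether their promoter elements bear on the direction was not tested. Each line is 250 bases up to the annotated start, 5′ to 3′ on the gene's own strand, from RefSeq on GRCh38.p14. They lie at chr2:47782895-47783144 (plus strand), chr12:4538640-4538889 (plus), chr11:125625979-125626228 (plus) and chr11:22625824-22626073 (minus). MSH6 has 4 annotated starts in that table and CHEK1 has 3, and the first listed is shown. Capitals mark CCAAT, the box bound by NF-Y, and the core of the E2F site, on either strand.
MSH6: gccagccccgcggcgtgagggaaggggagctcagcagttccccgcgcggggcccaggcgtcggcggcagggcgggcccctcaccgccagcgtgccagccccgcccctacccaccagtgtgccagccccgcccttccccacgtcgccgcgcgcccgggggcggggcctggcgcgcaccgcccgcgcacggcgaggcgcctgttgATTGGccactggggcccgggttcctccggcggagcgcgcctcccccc
RAD51AP1: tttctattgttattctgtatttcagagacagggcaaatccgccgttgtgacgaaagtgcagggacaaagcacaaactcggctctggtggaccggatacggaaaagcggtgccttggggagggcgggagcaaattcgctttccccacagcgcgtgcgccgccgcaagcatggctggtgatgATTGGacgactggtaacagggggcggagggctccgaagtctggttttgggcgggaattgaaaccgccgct
CHEK1: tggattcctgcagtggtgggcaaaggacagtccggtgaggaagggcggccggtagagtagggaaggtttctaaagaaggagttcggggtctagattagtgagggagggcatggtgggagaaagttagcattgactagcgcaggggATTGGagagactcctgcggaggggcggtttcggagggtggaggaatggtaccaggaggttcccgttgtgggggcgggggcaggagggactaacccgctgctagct
FANCF: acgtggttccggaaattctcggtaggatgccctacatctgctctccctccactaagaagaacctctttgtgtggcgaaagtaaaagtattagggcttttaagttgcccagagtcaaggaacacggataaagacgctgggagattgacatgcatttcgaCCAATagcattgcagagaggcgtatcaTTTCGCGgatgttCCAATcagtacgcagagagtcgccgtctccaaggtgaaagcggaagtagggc

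The E2F core was searched as TTTNNCG with C or G at each N, and a further element, the CHR, as TTTGAA, each on both strands, in windows of 250 bases before to 50 after each start. E2F factors drive S phase genes, and the CHR is the cell cycle element bound by the DREAM and MuvB complexes. Of the 42 members, 37 were in the promoter table, and 32 of these were also measured. An E2F core was present in 15 of these 37 members (40.5%), beside 10.4% of all 27305 genes in the table, 15.9% of the 10088 measured ones and 8.67% of all windows. CCAAT was present in 20 of 37 (54.1%), beside 39.7% of all genes, 43.3% of measured genes and 34.6% of windows. The CHR was present in 5 of 37 (13.5%), beside 18.2%, 14.1% and 15.2%. Members with an E2F core lay on both sides of 0, as did those without one, and a link between the core and direction was not tested. MSH6 holds one that begins at base 4 after its start, outside the stretch shown, and FANCF, at the other end of the range, holds one that begins 65 bases before it. The RAD51AP1 window has none, nor do the CHEK1 windows. CCAAT occurs in all 4 promoters shown, 47 bases before the start in MSH6, 70 in RAD51AP1, 105 in CHEK1, and at 92 and 52 in FANCF. Members with an E2F core had a median log2 ratio of 0.19 (12 measured, 8 above 0) and those without one 0.11 (20 measured, 11 above 0). Members with CCAAT had a median of 0.25 (18 measured, 13 above 0), and those without it -0.05 (14 measured, 6 above 0), while over all measured genes the medians were -0.01 with and -0.02 without CCAAT. A match to these letters is a description of the window.

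No gene of the BRCA1 complex and its partners reached 1.5-fold, and BARD1 had the highest log2 ratio of the 4. BARD1, the obligate RING partner of BRCA1 in its ubiquitin ligase, read 181.9 with control and 259.5 with FGF-AS siRNA, a log2 ratio of 0.50. Its other measured probe sets, at 0.42 and 0.29, lay on the same side. BRCA1 itself read 232.5 and 290.1 (0.31) on its brightest probe set, and 128.6 and 116.2 (-0.14) on the other, so its probe sets do not share a direction. BRIP1, the helicase that binds the BRCT domains of BRCA1, was split in the same way, with 148.8 and 206.6 (0.46) on one probe set and 89.8 and 70.4 (-0.33) on the dimmer one. PALB2, which bridges BRCA1 and BRCA2, read 214.5 and 208.3 (-0.04), within the disagreement between probe sets. Across the 4 genes the median was 0.38, and it was 0.08 when the probe sets of each gene were averaged.

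Among 8 strand exchange genes, RAD51AP1 and RAD54B were past 1.5-fold and RAD54L was next, while RAD51B, RAD51C, RAD51D, XRCC2 and XRCC3 lay at or below small positive values. RAD51AP1, a protein that stimulates strand invasion, read 339.6 and 543.4, a log2 ratio of 0.67 and percentile 94.0 of measured genes. The motor protein gene RAD54B read 137.7 and 213.1 (0.61), and RAD54L, its close relative, read 103.6 and 138.4 (0.40). Each of these 3 genes had 1 single-symbol probe set. The 5 others ran from -0.60 to 0.14. XRCC2 was lowest, with 168.7 and 109.1 (-0.60) on its only probe set, a kind whose name ends in _x_at because its probes may also bind other transcripts. RAD51D, which pairs with XRCC2, read 143.3 and 112.4 (-0.33) and -0.52 on a second probe set. RAD51C, which forms complexes with XRCC2 and RAD51D or with XRCC3, read 639.9 and 594 (-0.11) and -0.06 on the second. RAD51B was dim, at 40.8 and 45.6 (0.14), with all 3 measured probe sets between 0.14 and 0.22, and XRCC3, the other partner of RAD51C, read 121.7 and 128.3 (0.07). Median centring multiplied every FGF-AS siRNA signal by 1.10, and the median of all measured genes went from -0.02 to 0.12. RAD51C went from -0.11 to 0.03 under it, a change of sign that this factor alone gives to genes just below 0. XRCC2 and RAD51D, further below 0, kept their sign under each scaling tried.

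**Figure D2:**
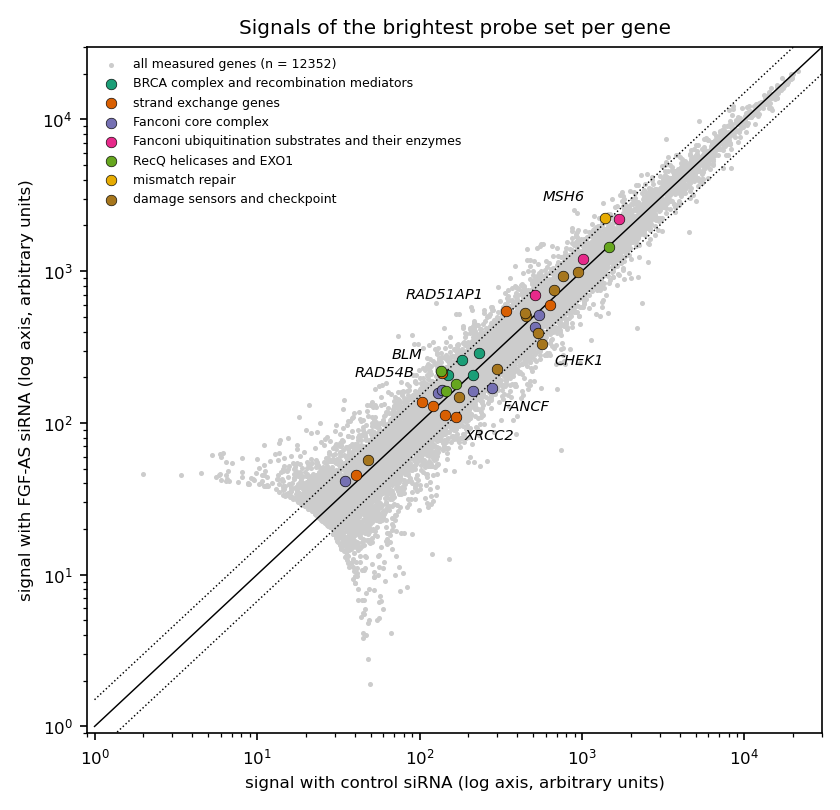
Signal with FGF-AS siRNA against signal with control siRNA for the brightest probe set of each gene, on log axes in arbitrary units. Grey points are all 12352 measured genes, coloured points the 37 members by role, the solid line equality and the dotted lines 1.5-fold without the offset. The 7 named members past 1.5-fold lie just outside the dotted lines, within the cloud of all genes.

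In the Fanconi pathway, the 3 measured genes of the ubiquitination step had log2 ratios above 0 on their brightest probe sets, with none past 1.5-fold. Those of the core complex lay on both sides of 0. FANCI, one of the proteins that receives ubiquitin, read 514.2 and 701.8 (0.44) on its brightest probe set and 514.6 and 656.9 (0.35) on the next. Its last probe set went the other way, with 562.9 and 395.8 (-0.50), a disagreement between 3 probe sets that all passed the stricter minimum. USP1, the enzyme that removes the ubiquitin again, read 1689.9 and 2200.5 (0.38), and 0.14 on its second probe set. UBE2T, the conjugating enzyme that supplies the ubiquitin, read 1011.7 and 1199.3 (0.24), within the SD between probe sets. WDR48, the cofactor of USP1 and no member, read 313.2 and 247.1 (-0.33), with all 4 measured probe sets between -0.93 and -0.25, and is named after its values were seen. The 3 members had a median of 0.38 and were above 0 under each scaling tried, and FANCI was at 0.10 when its probe sets were averaged.

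The core complex is the ligase that performs this step, with FANCL as its catalytic subunit and FANCM as the motor that anchors it to DNA. Of 7 measured members 3 were above 0 and 4 below, with a median of -0.09. The median went to 0.06 under median centring, where that of all measured genes was 0.12. FANCF, an adaptor subunit, read 279.3 and 169.6 (-0.70, or 1.62-fold lower), but its second probe set read 160.2 and 140.1 (-0.19). FANCE, which contacts FANCD2, read 212.9 and 162.4 (-0.38), and FANCG read 514.5 and 427.1 (-0.27). FANCL read 546.8 and 514.9 (-0.09), and it turned to 0.06 under median centring. Higher readings came from FANCC, with 130.2 and 156.3 (0.25), and from the dim FANCB, with 34.9 and 41.3 (0.21). FANCM read 137.8 and 165.5 (0.25) on its brightest probe set and -0.10 and -0.22 on dimmer ones. The bright members of the complex, at the stricter minimum, were 1 above and 4 below 0, with a median of -0.27, beside 49.4% of all genes at that minimum above 0.

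Among helicases and nucleases, BLM was the only one past 1.5-fold, and the others lay close to 0. BLM, the Bloom syndrome helicase that dissolves recombination intermediates, read 136 and 219.2, a log2 ratio of 0.66 on its only probe set. The related helicases WRN (145.5 and 162, 0.15) and RECQL4 (166.6 and 181.4, 0.12) were within the disagreement between probe sets. EXO1, an exonuclease of end resection and mismatch repair, read 1465.2 and 1446.6 (-0.02). Under median centring EXO1 was at 0.12, where the median of all measured genes was also 0.12. MSH6, a subunit of the mismatch recognition complex, had the highest log2 ratio of all members. It read 1393.6 and 2248.8 (0.69, or 1.61-fold) on its brightest probe set and 867.5 and 1285.8 (0.56) on the second. Both measured probe sets were therefore higher by more than the SD of 0.36, and its 2 remaining probe sets were below the minimum. Over the settings tried the MSH6 log2 ratio ran from 0.63 to 0.83.

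In checkpoint signalling, CHEK1 was the only one of 10 genes past 1.5-fold on its brightest probe set. CHEK1, the kinase that ATR activates at stalled forks, read 567.2 and 331.6 on its brightest probe set, a log2 ratio of -0.76 (1.70-fold lower) at percentile 5.38 of measured genes. A second probe set read 494.6 and 295 (-0.73), while the others read 219.9 and 210.7 (-0.06) and, on a dim one, 39 and 30.6 (-0.30). All 4 were below 0, and 2 of them by more than 1.5-fold. CHEK2, the corresponding kinase downstream of ATM, read 298.9 and 227.8 (-0.38) on its only probe set. ATM had 4 measured probe sets, from -0.24 to 0.21, and no common direction. ATR read 452.5 and 503.7 (0.15), and 261.3 and 262.6 (0.01) on its second probe set.

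The 4 members that help ATR to reach CHEK1 had small positive log2 ratios on their brightest probe set. TOPBP1, the activator of ATR, read 446.4 and 528.5 (0.24). CLSPN, the claspin adaptor that presents CHEK1 to ATR, was dim at 48.5 and 57.1 (0.21), with 0.76 on another dim probe set. TIMELESS read 763.7 and 933.4 (0.29) and its fork protection partner TIPIN 674.9 and 755.2 (0.16), while a dim probe set of TIMELESS gave -0.05. Each value from a brightest probe set lay within the SD between probe sets, and only the direction was shared. Genes of the same step outside the set lay on both sides of 0, named here after their values were seen. RAD17, which loads the clamp that ATR activation needs, read 535 and 375.6 (-0.50), with its 3 measured probe sets between -0.77 and -0.50. The clamp subunits RAD9A, RAD1 and HUS1 had log2 ratios of 0.53, 0.29 and -0.16. RAD9A, at 86.8 and 127.8, was below the stricter minimum. The 5 measured probe sets of RAD1 ran from -0.23 to 0.29, and the 3 of HUS1 from -0.16 to 0.04. In the MRN complex, which tethers broken ends, RAD50 read 537.1 and 393.6 (-0.44), with -0.51 on a second probe set and 0.82 on a dim one (40.2 and 75.6). NBN, its partner, read 948.9 and 988.3 (0.06), and its 4 measured probe sets ran from -0.23 to 0.06. The 10 sensor and checkpoint genes together had a median of 0.11, with 6 above and 4 below 0.

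Agreement between probe sets of a member was moderate. Of 20 members with several measured probe sets, 12 (60%) had all of them on one side of 0, beside 49.1% of the 6155 such genes on the array. The other 8 were BRCA1, BRIP1, FANCI, FANCM, ATM, NBN, RAD50 and TIMELESS. Over all 69 measured member probe sets, 40 were above 0 and 29 below, with a median of 0.12, while 43.2% of all measured single-symbol probe sets were above 0. Of the 69, 7 were at least 1.5-fold higher and 4 lower, beside 7.53% and 15.1% of all such probe sets.

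Other genes of these pathways lay slightly below 0. Of 63 measured genes among other recombination, crosslink and checkpoint genes, 26 were above 0 and 37 below, with a median of -0.08. The median went to 0.06 under median centring, where that of all measured genes was 0.12. Of the 47 genes of this list at the stricter minimum, 4 were at least 1.5-fold higher and 1 lower, beside 5.75% of all genes in each direction. The higher ones were FIGNL1, an ATPase of recombination (153.2 and 270.1, 0.79, but -0.11 on its other probe set), and CDC25A, the cell cycle phosphatase that CHEK1 marks for destruction (182.1 and 308.2, 0.74, other probe sets down to -0.49). The remaining ones were H2AX, the histone variant phosphorylated at breaks (1451.7 and 2396, 0.72, other probe sets down to -0.24), and RFWD3, a ubiquitin ligase of the Fanconi pathway (182.6 and 302.2, 0.71). REV3L, the catalytic subunit of the translesion polymerase zeta, was lower (560.3 and 330.3, -0.75, but 0.05 on the other). Among dimmer genes, POLH, the translesion polymerase eta, was lower at 162.5 and 48.4 (-1.63, with its other 5 measured probe sets up to 0.07), and RAD52, an annealing protein, at 61.9 and 23 (-1.22, with 3 probe sets all at or below -0.99). These 2 are named after their values were seen.

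End joining genes (7 measured) had a median of 0.09, with 5 above 0 and none past 1.5-fold in either direction. Excision and direct repair genes (35 measured) had a median of -0.06, and 0.08 under median centring, where all measured genes had 0.12. As deposited, 14 were above and 21 below 0. None was at least 1.5-fold higher, and 4 were at least 1.5-fold lower, a share near the 9.52% of all measured genes. At the stricter minimum these were ERCC2, a helicase of nucleotide excision repair (227.6 and 107.3, -1.04, and -0.69 on its other probe set), ERCC8, a factor of transcription-coupled repair (448.1 and 248.3, -0.84, other probe sets up to 0.17), and XPC, the damage sensor of nucleotide excision repair (642.8 and 394.7, -0.70). The dimmer UVSSA, also of transcription-coupled repair, read 173 and 105.9 (-0.68) and is named after its value was seen.

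**Figure D3:**
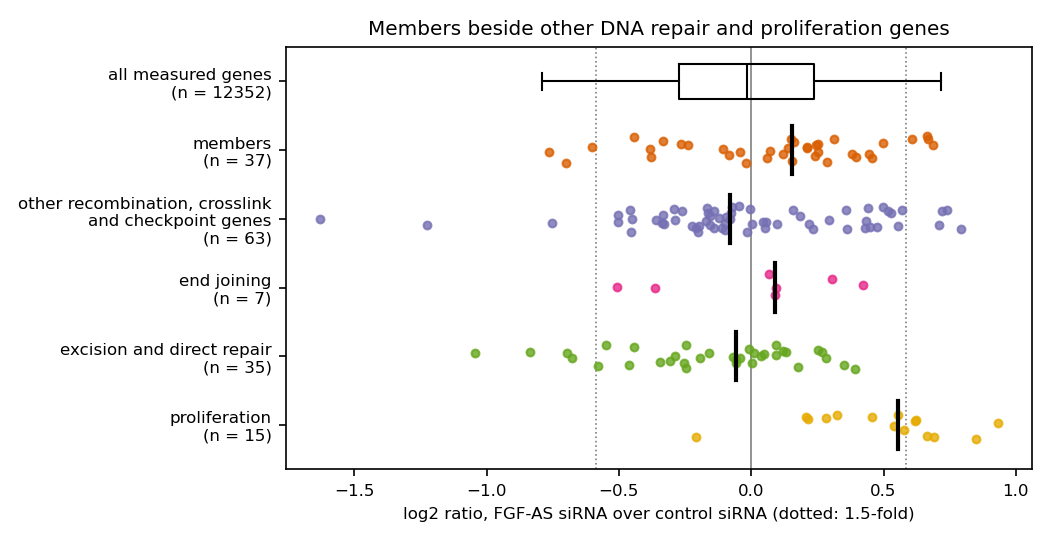
Log2 ratio (x axis) of single genes in each list (rows), with black bars at the medians. The box for all 12352 measured genes spans percentiles 25 to 75 with whiskers at percentiles 5 and 95, and dotted lines mark 1.5-fold. The members have a median of 0.15, between the other repair lists (-0.08 to 0.09) and the proliferation genes at 0.55.

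Genes of dividing cells also read higher with FGF-AS siRNA. Of 15 proliferation genes 14 were above 0 on their brightest probe set, beside 48.1% of all measured genes. The list had a median log2 ratio of 0.55, which ran from 0.42 to 0.70 over the settings tried. Its summed signal was 22676 with control and 29979 with FGF-AS siRNA. TOP2A, a topoisomerase of S and G2 phase, was the exception at -0.21. Further probe sets of AURKA, AURKB, BUB1 and CCNB2 went down to -0.28, -0.26, -0.43 and -0.40. MKI67 read 487.3 and 753.7 (0.62), and E2F1, a factor that drives S phase genes, 185 and 338.5 (0.85). The part of this difference in the result for the repair genes was not tested. The median of the members lay above that of all measured genes by 0.17 as deposited, and by 0.15 to 0.20 over the other settings. Median centring shifted the median of all measured genes from -0.02 to 0.12 and that of the members from 0.15 to 0.29, and it then left 7 members at least 1.5-fold higher and 1 lower in place of 4 and 3. The share of all measured genes went the same way, from 7.96% to 12.9% higher and from 9.52% to 6.19% lower. Quantile normalization gave 5 and 2 members, beside 11.1% and 6.53% of all genes, and loess 4 and 2, beside 10.3% and 7.08%. MSH6 and RAD51AP1 stayed past 1.5-fold in all 10 settings, and CHEK1 in all but the mean over its probe sets (-0.46). With an offset of 32 in place of 6.1, RAD54B, BLM and XRCC2 were under 1.5-fold. XRCC2 was also under it with each of the 3 other scalings, and FANCF with median centring (-0.56), with the mean over its probe sets (-0.44) and without the _s_at and _x_at probe sets (-0.19).

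**Figure D4:**
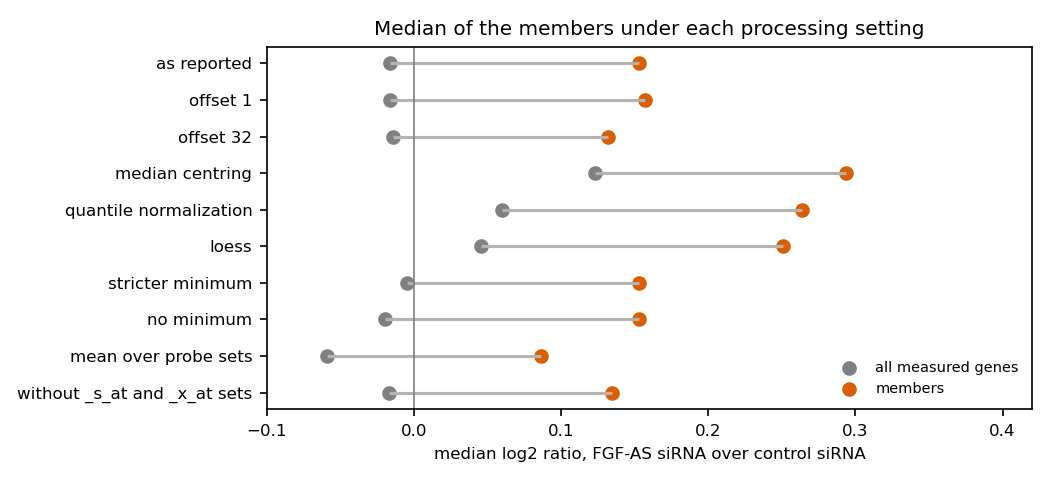
Median log2 ratio (x axis) of the members and of all measured genes under each processing setting (rows). The median of the members ran from 0.09 to 0.29 and lay above that of all measured genes in each of the 10 settings shown.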

How the data were processed

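Intensities of 54675 probe sets on 2 arrays (1 per group) were taken as deposited by the authors. GCOS and MAS5 are named in the submitters' processing notes, without versions, and the sources used here do not give how the arrays were scaled. Control probe sets (62) were removed. Of the other 54613, 41091 had 1 symbol in the platform annotation, 1801 several and 11721 were unnamed here. RefSeq gene identifiers (GRCh38.p14) covered 41037 of them and changed no symbol. Log2 ratios used an offset of 6.1 (percentile 25 of all signals), with no further scaling. The signal minimum was percentile 50 and the stricter one percentile 75 of the mean of both arrays. Medians were 25.5 and 23.1, and log2 signals of measured probe sets correlated with r = 0.96. Detection calls were not used here, and an array signal carries no counting error. Array values are given for members past 1.5-fold, for the extremes of each role group and for members whose bright probe sets differ in sign, and for most others. Of other pathway genes, those past 1.5-fold at the stricter minimum are named. The members and lists were chosen with earlier results of these data known. One symbol of the other recombination list, REV7, is a second name of MAD2L2. Computation used Python 3.11.15, numpy 2.4.6, pandas 2.3.3 and statsmodels 0.14.6, and the summary was tested on simulated data.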

Additional observations from a re-analysis of the deposited data

How the results depend on the processing

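Offset, scaling, signal minimum and the choice of probe set were each changed, in 9 alternatives. No paired analysis was possible because each group holds 1 array and the labels carry no replicate number. The median of the members moved to 0.29 with median centring, to 0.26 with quantile normalization and to 0.25 with loess. Members at least 1.5-fold higher numbered 2 with an offset of 32 and 7 under median centring, where 5.08% and 12.9% of all measured genes were that much higher. Members at least 1.5-fold lower numbered 1 under median centring, with the mean over probe sets and when _s_at and _x_at probe sets were dropped, beside 6.19%, 11.1% and 10.7% of all measured genes. For the BRCA group the median was 0.08 (0.076) with the mean over probe sets. For the strand exchange genes it was 0.61 at the stricter minimum (3 genes) and 0.40 without the _s_at and _x_at probe sets (5 genes). Where the choice of probe set moved a value, the cause was not tested. The median of the other recombination genes turned from -0.08 to 0.06 under median centring. Over all measured genes the median went from -0.02 to 0.12 under that scaling. FANCF went to -0.19 without the _s_at and _x_at probe sets, and BRIP1 to 0.07 and RAD50 to -0.05 with the mean over probe sets. Of the 37 members, 29 kept their sign in every setting that gave a value, and ATM, EXO1, FANCL, FANCM, NBN, PALB2, RAD51C and TIMELESS did not. In the remaining 88 values of the members and role groups, medians moved by no more than an allowance, and member counts by at most 1.5 times. Past the allowance in the other lists were the excision repair median under median centring (-0.06 to 0.08) and the other recombination median with quantile normalization (-0.08 to -0.01). So was the proliferation median, from 0.55 to 0.70 under median centring and to 0.42 with the mean over probe sets. The allowance was 0.49, the SD between probe sets over all measured genes, divided by the square root of the number of genes. It is wide for small lists, and the Fanconi core median ran from -0.27 to 0.06 within it.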
